A study of Homo sapiens with 2 samples.

Results

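Most transcript clusters on the whole-transcript array carry no gene name: the platform annotation lists no gene symbol for 98455 of the 135750 rows, although a row that it does not list is unnamed here and not thereby without a gene. The clusters described here are the 25311 unnamed rows whose higher array value exceeded a threshold of about 4.8 on the deposited log2 scale, which is 25.7% of the unnamed rows and 18.6% of all rows. The values themselves therefore chose the members, through their level in either array. For comparison, 17841 clusters with 1 gene symbol passed the same threshold, which is 49.3% of those.

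RNA came from Hep3B, an established cell line of human hepatocellular carcinoma, with 1 array for each genotype. The first array held RNA of a line in which the endogenous SOX4 gene had been knocked out with CRISPR/Cas9 and which was kept in puromycin at 1 ug/ml. The other held RNA of the parental line, labelled wildtype, which was grown in that medium with no puromycin. The labels do not say whether the knockout line is 1 clone, and genotype, puromycin, selection and array cannot be told apart. With 1 array a group the differences below have no replicate check, no test was run, and "higher" and "lower" always mean the knockout array set against the parental array. In bulk RNA, fewer cells of a type and less RNA per cell cannot be told apart.

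A transcript cluster is a set of probes that the array's makers grouped over overlapping transcripts on the same strand. Unnamed clusters of such arrays commonly come from predicted or assembled transcripts: long non-coding RNAs, antisense and intronic transcripts, unprocessed ends of genes, pseudogene copies and fragments of repeats. Transcription often runs past the annotated end of a gene and also starts in both directions at active promoters and enhancers, so RNA from unnamed sequence can follow that of nearby genes. SOX4 is a transcription factor with a high-mobility-group domain that is active in development and in many tumours, liver cancer included.

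The identifiers place most of these clusters. The 2 characters after TC gave a chromosome for 25081 members, while 230 gave none by this reading. Of these, 151 were unmapped sequences, 47 lay on unplaced contigs, and 32 lay on random contigs whose single-digit chromosome the reading misses. Among the named clusters, the chromosome in the identifier was that of the RefSeq gene (assembly GRCh38.p14) for 24999 of 25031, and the numbers ran in ascending gene order in 98.9% of 24974 neighbouring pairs, with both genes on the same strand in 99.6% of 11835 pairs. Consecutive numbers are thus mostly neighbours on the same strand, and an unnamed cluster can be described by the named genes on either side of it. The exceptions are the places where the numbers start again: on chromosomes 1 to 22 and X the main series along both strands were followed by 2 short series, which hold 606 members (2.42% of those placed) and in which neighbouring numbers can lie far apart. Without these short series, 872 members were 2-fold higher and 1057 lower. No coordinates are given for the unnamed clusters, since the sources used here do not give the build behind the identifiers.

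The promoter of LIMCH1 is shown because this protein-coding gene lies directly beside unnamed clusters with some of the largest differences and was itself higher in the knockout array by more than 2-fold. LIMCH1 encodes a LIM and calponin-homology domain protein that acts on non-muscle myosin. The sequence is the 250 bases before the RefSeq start in GRCh38.p14, 5′ to 3′ on the plus strand, from chr4:41359357-41359606. All letters are lower case because the stretch holds neither of the SOX-type motifs ACAAAG and ACAATG on either strand, which says only that these letters are not in this window. Among 35116 RefSeq promoters of the same length, 13.7% held ACAAAG, 9.29% held ACAATG and 21.2% held at least 1 of them.
LIMCH1: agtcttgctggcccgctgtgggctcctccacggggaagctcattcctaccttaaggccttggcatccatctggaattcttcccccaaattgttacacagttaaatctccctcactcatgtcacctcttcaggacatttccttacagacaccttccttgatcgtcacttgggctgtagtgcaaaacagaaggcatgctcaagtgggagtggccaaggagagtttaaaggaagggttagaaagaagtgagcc

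Most unnamed clusters had much the same value in both arrays. The median value was 5.97 in the knockout and 6.0 in the parental array, and the median difference, knockout minus parental, was -0.02 (SD across clusters 0.57). The difference was within 0.5 for 17788 clusters, or 70.3%. At least 2-fold higher were 901 unnamed clusters (3.56%), and at least 2-fold lower were 1077 (4.26%). Over all 43856 rows above the threshold, 4.74% were 2-fold higher and 3.97% were 2-fold lower, so the unnamed share was below that background on the higher side and slightly above it on the lower side. The clusters with 1 symbol leaned the other way, with 1132 higher (6.34%) and 644 lower (3.61%).

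At 4-fold the unnamed shares were below the background on both sides. At least 4-fold higher were 76 unnamed clusters (0.3%) and at least 4-fold lower 77 (0.304%), against 0.709% and 0.367% of all rows above the threshold. Clusters with 1 symbol had 229 (1.28%) and 81 (0.454%). At 16-fold or more, 7 of the 25311 unnamed clusters were higher and 2 lower. Of the 17841 named clusters 38 were higher and 9 lower, and of all 43856 rows above the threshold 46 and 11. Of the named clusters, the 11547 of protein-coding genes had 8.11% higher and 4.24% lower, whereas the 570 of long non-coding RNA genes, had 5.96% and 4.91%. The long non-coding share was nearer to the unnamed one on the higher side, and the protein-coding share on the lower side.

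Part of these counts follows from the threshold. Both arrays exceeded it for 20746 members, of which 527 (2.54%) were 2-fold higher and 629 (3.03%) lower. The knockout array alone exceeded it for 2065, of which 374 (18.1%) were 2-fold higher, and the parental array alone for 2500, of which 448 (17.9%) were 2-fold lower. A cluster that passed in only 1 array had to differ. Requiring both arrays to pass also selects on the values, since it removes clusters with a low value in 1 array. Neither set of counts is therefore free of the filter.

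**Figure D1:**
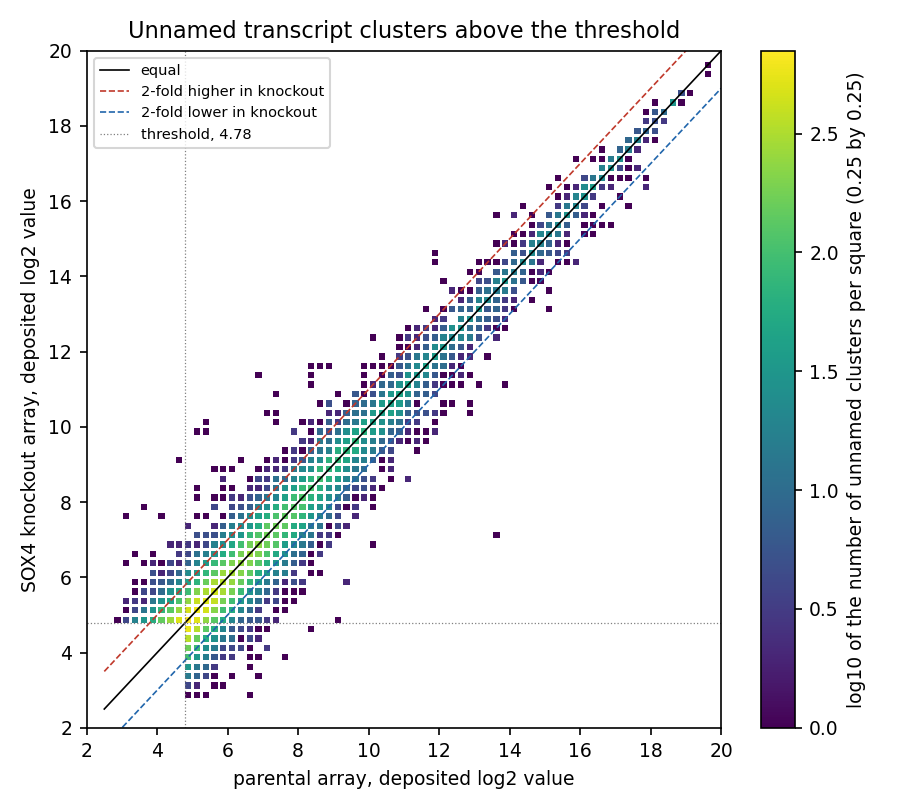
Deposited log2 values of the 25311 unnamed clusters above the threshold, with the parental array on the horizontal axis and the SOX4 knockout array on the vertical axis (1 array each); colour gives the log10 number of clusters in each square of 0.25 by 0.25. Most squares lie between the dashed lines at a 2-fold difference, and the values of the 2 arrays correlated with r = 0.976 across the clusters.

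At the threshold itself, the members just inside it were TC0700008634.hg.1 at 4.64 in the knockout and 4.8 in the parental array, TC0X00009060.hg.1 at 4.6 and 4.8, and TC1100007483.hg.1 at 4.55 and 4.8. Just outside lay TC0500013121.hg.1 at 4.70 and 4.8, TC0500011242.hg.1 at 4.23 and 4.8, and TC0600006821.hg.1 at 3.87 and 4.8. Nothing but the last decimals of the higher value separates these 6 clusters.

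The targeted gene was measured by the cluster TC0600007158.hg.1, named SOX4, at 12.44 in the knockout and 13.14 in the parental array, a difference of -0.70. A transcript value does not show whether the protein is made. The 5 nearest unnamed members on each side ranged from -1.58 for TC0600007172.hg.1, with 3.2 in the knockout and 4.8 in the parental array, to 0.62 for TC0600007163.hg.1, with 5.80 and 5.18. Of these 10 clusters, 4 were above 0 and 1 was past 2-fold.

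The unnamed clusters that were highest relative to the parental array included 3 consecutive members on chromosome 4, next to LIMCH1. TC0400007349.hg.1 had 9.76 in the knockout and 5.02 in the parental array, a difference of 4.75. TC0400007348.hg.1 had 7.80 and 3.67, and TC0400007346.hg.1 had 6.70 and 3.34. The named clusters among them were higher too: LIMCH1 had 11.94 and 4.57, a difference of 7.37, and the ribosomal protein pseudogene RPL12P20, which lies among the unnamed clusters, had 8.64 and 4.25. All 5 clusters were thus near or below the threshold in the parental array and above it in the knockout array. The next named gene further along, TMEM33, a membrane protein of the endoplasmic reticulum and nuclear envelope, differed by -0.65.

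On chromosome X, the identifiers just before STS, the gene of steroid sulfatase, which removes sulfate from steroid hormones, were also higher. TC0X00011258.hg.1 had 9.84 in the knockout and 5.30 in the parental array, a difference of 4.54, and its neighbour TC0X00011257.hg.1 had 7.84 and 5.67. STS itself had 10.50 and 6.80, a difference of 3.71. The numbers start again at this point, so that the place of these clusters along the chromosome is not settled. On chromosome 1, TC0100018114.hg.1 (7.52 and 4.09) and TC0100018113.hg.1 (8.89 and 5.88) lay beside the olfactory receptor gene OR11L1, which had 7.02 in the knockout and 4.77 in the parental array. On chromosome 7, TC0700011566.hg.1 had 10.42 and 7.0, next to the pseudogene GTF2IP7 with 13.13 and 11.03.

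Other clusters stood out from their named neighbours. TC0900007094.hg.1 on chromosome 9 had the largest difference of any unnamed member on the higher side, with 10.21 in the knockout and 5.39 in the parental array, or 28.2-fold. Its flanking named clusters, the 7SL pseudogene RN7SL22P and CREB3, a membrane-bound transcription factor of the secretory pathway, differed by -0.31 and 0.66. RN7SL22P was below the threshold in both arrays, at 3.26 and 3.57. TC0200013915.hg.1 on chromosome 2 had 11.28 and 6.82 and lies between IL1A and IL1B, the genes of the inflammatory cytokines interleukin-1 alpha and beta. Neither cytokine gene followed it: IL1A had 4.06 in the knockout and 3.87 in the parental array, and IL1B had 3.56 and 3.04, all below the threshold. TC0100011765.hg.1 had 9.01 and 4.72, whereas DNAH14, an axonemal dynein heavy chain gene 10 steps away, differed by 0.07. On chromosome 7, TC0700013518.hg.1 had 10.88 and 7.44, and the cluster with the preceding number, TC0700013517.hg.1, had 6.99 and 4.26. This pair belongs to a short series, and the named clusters nearest by number are several steps away.

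The largest difference of all unnamed members was on the lower side. TC0100015124.hg.1 on chromosome 1 had 7.22 in the knockout and 13.53 in the parental array, a difference of -6.31, and its parental value was thus 79.2-fold higher. The next member, TC0100015123.hg.1, had 2.95 and 6.54. The named clusters around this pair are a ferritin light chain pseudogene, FTLP17, and a copy of a mitochondrial gene, MTATP6P14, which differed by 0.20 and 0.12. They were below the threshold in both arrays, FTLP17 at 4.29 and 4.09 and MTATP6P14 at 3.96 and 3.84. TC1500007972.hg.1 on chromosome 15 had 4.95 and 9.19, between the co-chaperone gene DNAJA4 at -0.46 and the hydroxylysine kinase gene HYKK at 0.40. TC0300009836.hg.1 on chromosome 3 was lower from a high level, with 11.01 in the knockout and 13.89 in the parental array.

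On chromosome 8, TC0800011418.hg.1 had 6.81 in the knockout and 10.08 in the parental array, and TC0800011419.hg.1 had 4.04 and 6.41. They lie next to the antisense transcript ZFPM2-AS1, which had 4.31 and 11.12, a difference of -6.81. On chromosome 4, TC0400009986.hg.1 and TC0400009987.hg.1 had identical values of 5.87 and 9.37 and count as 1 measurement. On chromosome 2, TC0200015621.hg.1 had 4.09 and 7.23, and the 5 other unnamed clusters within 3 steps of it differed by -0.82 to -1.85. The named cluster directly beside it went the other way: the microRNA gene MIR548F2 had 6.35 in the knockout and 4.91 in the parental array. ERBB4, a receptor tyrosine kinase gene 4 steps away on the other side, was below the threshold in both arrays, with 3.16 and 4.02.

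Among the 15 members with the largest differences on the higher side, 7 had a flanking named cluster that was at least 2-fold higher too, STS included. Of these 7, TC0400007346.hg.1, TC0400007348.hg.1 and TC0400007349.hg.1 share the flanking cluster RPL12P20 and so are not separate places. Among the 15 on the lower side, 2 had one that was at least 2-fold lower. For TC0200007073.hg.1 that cluster was SPATA31H1, which was below the threshold in both arrays. Among placed members within 2-fold, 6.20% had a flanking named cluster 2-fold higher and 4.40% had one 2-fold lower. The parental value of 5 of the 15 higher members did not exceed the threshold. Nor did the knockout value of 9 of the 15 lower members. The size of those differences thus rests on a value at or below the threshold.

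**Figure D2:**
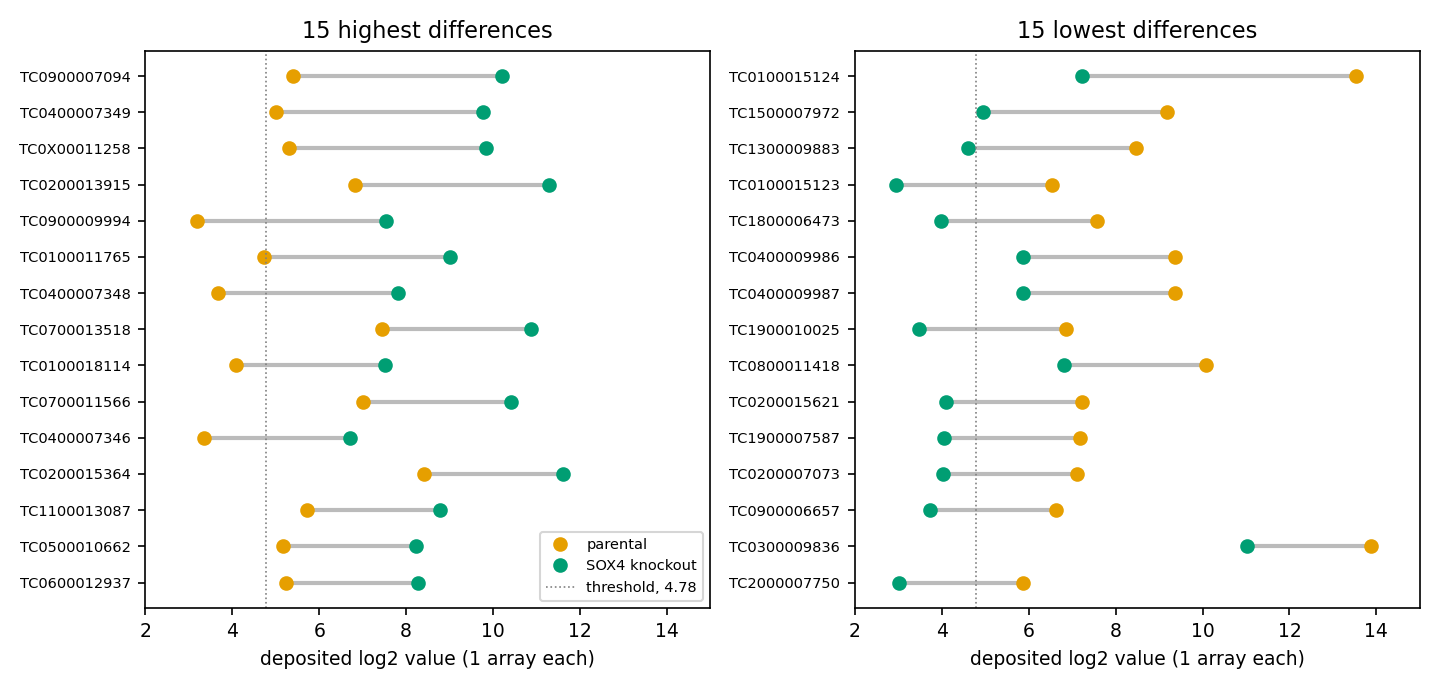
Deposited log2 values of the 15 unnamed clusters with the largest differences on the higher side (left) and on the lower side (right), with 1 point for the knockout array and 1 for the parental array and a line joining them. The difference reaches 4.82 for TC0900007094.hg.1 and -6.31 for TC0100015124.hg.1, and many of the lower points lie near the threshold of about 4.8.

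Next to a named cluster that differed, unnamed clusters differed the same way more often. Of the 6284 members directly beside a named cluster that was above the threshold and within 2-fold, 209 (3.33%) were 2-fold higher and 251 (3.99%) lower. Of the 411 beside a named cluster at least 2-fold higher, 70 (17.0%) were 2-fold higher and 9 (2.19%) lower. Of the 296 beside a named cluster at least 2-fold lower, 59 (19.9%) were 2-fold lower and 2 (0.676%) higher. Where the named neighbour was at least 4-fold higher, 28 of 83 members (33.7%) were 2-fold higher, and where it was at least 4-fold lower, 11 of 33 (33.3%) were 2-fold lower.

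Most members past 2-fold had no flanking named cluster past 2-fold the same way. The nearest named cluster was itself above the threshold for only 15326 of the 25035 placed members. Of the 893 placed members that were 2-fold higher, 187 (20.9%) had a flanking named cluster 2-fold higher, and of the 1071 that were 2-fold lower, 166 (15.5%) had one 2-fold lower. Among the 23071 members within 2-fold the corresponding shares were 6.20% and 4.40%. Across clusters, the difference of a member and that of its nearest named cluster above the threshold correlated with r = 0.303 at 1 identifier step (6991 members), 0.255 at 2 steps, 0.222 at 3 to 5 steps and 0.174 at 6 to 10 steps. Between unnamed members themselves r was 0.186 for the next member along the strand, 0.108 for the second next and 0.017 at 50 members apart. These correlations are across clusters measured on the same 2 arrays, which are not independent, and are given as a description.

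In 13 places at least 4 unnamed members in a row differed by 2-fold or more the same way, 4 of them higher with 20 members and 9 of them lower with 43. The one with the most members was on chromosome 1 between the pseudogene HMGB3P6 (-0.28) and LRRC52 (0.15), which encodes an auxiliary subunit of potassium channels. LRRC52 was below the threshold in both arrays, at 2.87 in the knockout and 2.72 in the parental array. There 9 consecutive members, TC0100010420.hg.1 to TC0100010429.hg.1, were lower by differences of -1.18 to -2.37 with a median of -1.44. TC0100010426.hg.1, for example, had 5.53 in the knockout and 7.90 in the parental array, and the U6 pseudogene RNU6-171P among them differed by -0.70. A second set of 4 members, TC0100010434.hg.1 to TC0100010439.hg.1, followed before LRRC52 with a median of -1.63. This second set is not unbroken, since it skips 2 unnamed clusters below the threshold, which differed by -0.84 and -0.10. Its members, except TC0100010439.hg.1, passed the threshold in the parental array only.

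The steepest set was on chromosome 18, where 5 consecutive members between ADCYAP1, the gene of the neuropeptide PACAP, and NDC80, a kinetochore gene, were lower by a median of -2.46. TC1800006469.hg.1 had 4.30 in the knockout and 6.88 in the parental array. TC1800006470.hg.1 had 4.95 and 7.41, TC1800006471.hg.1 had 3.48 and 5.59, TC1800006472.hg.1 had 2.85 and 5.13, and TC1800006473.hg.1 had 3.99 and 7.57. All 5 were thus above the threshold in the parental array, and 4 of them were below it in the knockout array. ADCYAP1 and NDC80 differed by -0.26 and 0.42, but ADCYAP1 was below the threshold in both arrays, at 2.71 and 2.97.

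On chromosome 14, 5 members before DIO2-AS1, an antisense transcript at the deiodinase gene DIO2, were lower from higher levels, from TC1400007780.hg.1 with 10.72 in the knockout and 12.91 in the parental array to TC1400007784.hg.1 with 5.72 and 7.46. On chromosome X, 4 members between GPC3 and MIR363 were lower by -1.07 to -2.18. GPC3, a cell-surface proteoglycan gene used as a marker of hepatocellular carcinoma, had 16.57 and 17.03 itself. On chromosome 3, 4 members beside LSAMP, the gene of a neural cell-adhesion protein, were lower by -1.03 to -1.37, and LSAMP had 10.22 in the knockout and 11.25 in the parental array. Other lower sets lay on chromosome 2 next to CCDC93 (median -1.69), on chromosome 15 and on chromosome 21. The sets on chromosomes 15 and 21 also skip unnamed clusters below the threshold, and named ones, and so are not unbroken. On chromosome 21 the 4 members differed by -1.33 to -1.61. All 4 passed the threshold in the parental array only, with knockout values of 3.33 to 4.21. Of the named clusters between them, BACH1-IT2 differed by -1.48 and MAP3K7CL by 0.32. In the set next to CCDC93, all but TC0200013992.hg.1 passed in the parental array only. So did TC1500006858.hg.1 and TC1500006859.hg.1 in the set on chromosome 15.

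On the higher side, 5 members after TNFAIP8 on chromosome 5, a regulator of apoptosis induced by tumour necrosis factor, differed by 1.04 to 1.37. The first of them, TC0500008440.hg.1, had 7.92 in the knockout and 6.68 in the parental array, and TNFAIP8 had 9.58 and 7.90. TC0500008442.hg.1, TC0500008443.hg.1 and TC0500008444.hg.1 passed the threshold in the knockout array only. On chromosome 2, 4 members after MCFD2, a cargo-receptor gene of the secretory pathway, had a median of 2.1, from TC0200012506.hg.1 with 6.13 and 3.81 to TC0200012509.hg.1 with 6.29 and 3.99, while MCFD2 differed by -0.07. On chromosome 1, 4 members around the histone pseudogene H2BC19P (0.98) were higher, TC0100009873.hg.1 among them with 12.40 and 10.94. The other higher set on that chromosome, 7 members before the heat-shock gene HSPA6, holds 5 distinct pairs of values and differed by 1.03 to 1.52, with HSPA6 at -0.11.

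**Figure D3:**
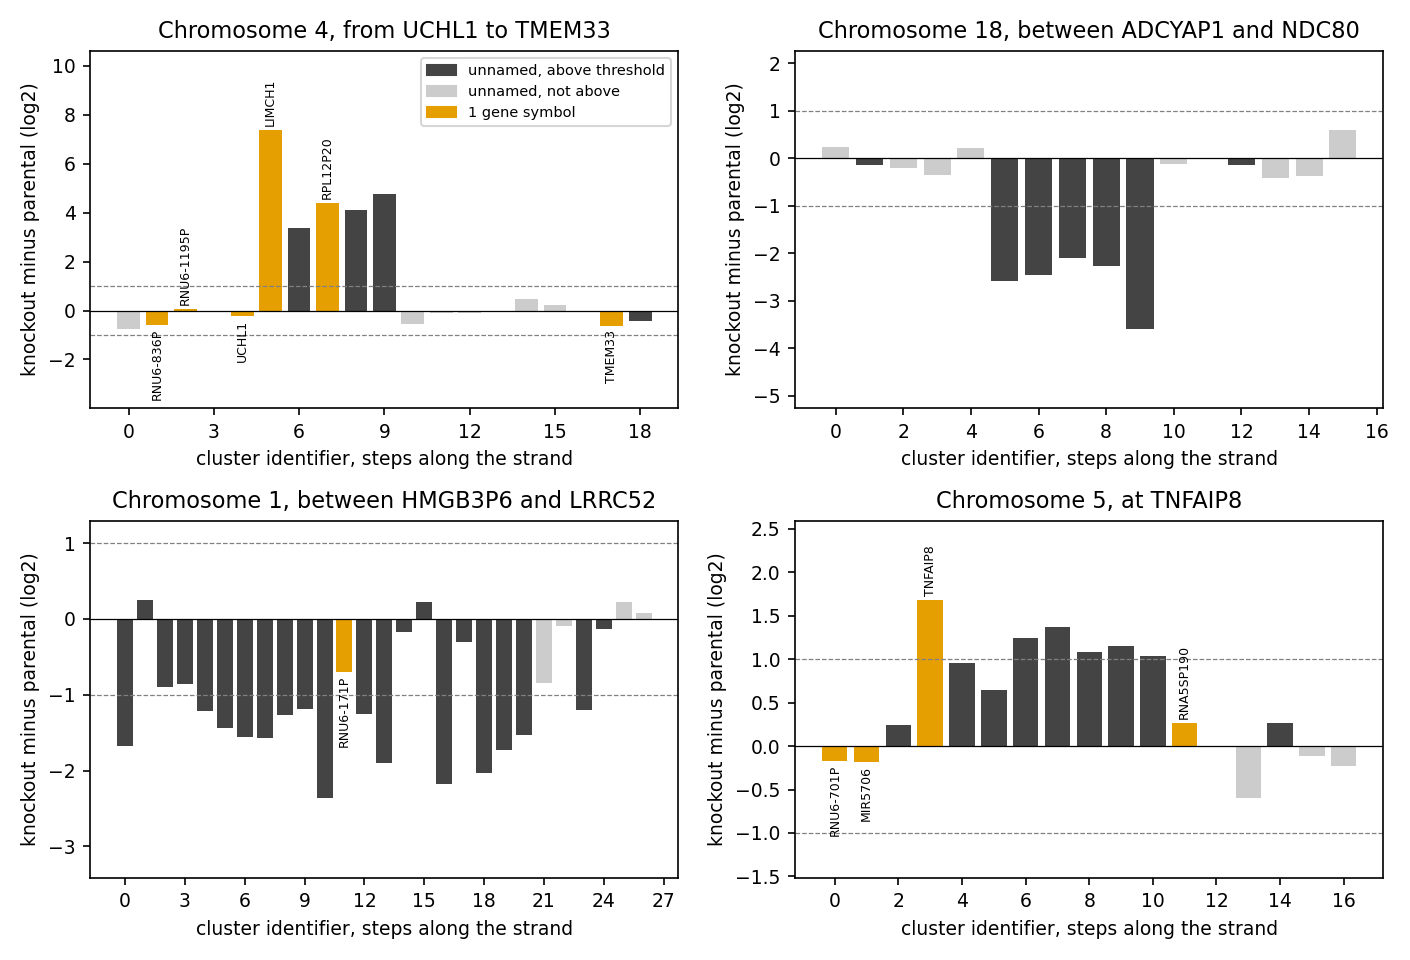
Differences, knockout minus parental on the log2 scale, of consecutive clusters along one strand at 4 places; the horizontal axis counts identifier steps, dashed lines mark a 2-fold difference, and colours separate unnamed members, unnamed clusters not above the threshold and clusters with 1 gene symbol. Members beside LIMCH1 (difference 7.37) and TNFAIP8 (1.68) were higher with those genes, and the sets on chromosomes 18 and 1 lay at medians of -2.46 and -1.44 between named genes that were within 2-fold. Of these named genes, ADCYAP1 and LRRC52 were below the threshold in both arrays.

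Over longer distances, windows of 25 consecutive members with a median difference of at least 0.5 in size, joined where they overlapped, formed 24 stretches on 15 chromosomes with 860 members. Of these, 17 were lower (640 members, of which 122 were 2-fold lower) and 7 higher (220 members, of which 43 were 2-fold higher). The windows were chosen for these medians, so the members' values in them are a description. Joining windows can dilute a stretch: the one on chromosome X, counted as higher, had a median of -0.00 with 16 of 35 members above 0. Another, on chromosome 9, runs across the point where the numbers start again on the other strand. The named clusters inside were not used to choose the stretches, though they come from the same 2 arrays. Their median was on the side of the windows in 22 of the 24 stretches, the one on chromosome X among them, and at least 0.5 in size in 5.

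The clearest higher stretch lay on chromosome 11 between ZFPL1 and ALG1L8P, where 32 of 37 members were above 0 with a median of 0.56, and the 30 named clusters had a median of 0.59. On chromosome 18, between RN7SL282P and PPP4R1-AS1, 25 of 28 members were above 0, 10 of them 2-fold. The clearest lower stretch was on chromosome 19 between the zinc-finger gene ZNF101 and TAF9P3, with a median of -0.51 over 49 members, 14 of them 2-fold lower, and a median of -0.91 over 23 named clusters, 10 of them 2-fold lower. A second lower stretch on chromosome 19, from SUGP2 to LINC00662, had medians of -0.33 and -0.66. On chromosome 2, from HNMT, a histamine-degrading enzyme gene, to TNFAIP6, the medians were -0.42 over 43 members and -0.72 over 11 named clusters. Unnamed and named clusters went apart in 2 lower stretches: on chromosome 16 between TMPOP2 and MIR7854 the medians were -0.31 and 0.21, and on chromosome 1 between RNU6-481P and AKR1D1P1 they were -0.15 and 0.26. The stretch on chromosome 1 is mixed, with only 23 of its 42 members below 0. In it 15 members were 2-fold lower, and the 6 that were 2-fold higher belong to the set before HSPA6.

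Among chromosomes 1 to 22 and X, the unnamed share 2-fold lower was highest on chromosomes 13 and 21, and the share 2-fold higher was highest on chromosome 11. On chromosome 21, 34.1% of the 361 members were above 0, the median difference was -0.18, 26 members (7.20%, exact binomial 95% interval 4.76% to 10.4%) were 2-fold lower and 8 (2.22%) higher. The 217 named clusters of chromosome 21 had 33 lower (15.2%) and a median of -0.32. On chromosome 13, 44 of 539 members (8.16%, interval 5.99% to 10.8%) were lower and 8 (1.48%) higher, with a median of -0.11. The named clusters there had 4.44% lower and 2.96% higher, with a median of -0.15, so their median was also below 0. Chromosome 11 was the reverse, with 59 of 1134 members higher (5.2%, interval 3.98% to 6.66%) and 22 (1.94%) lower, and 11.4% of its named clusters higher. The intervals cover counting error only, and neighbouring clusters are not independent.

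Chromosomes 9, 2 and 19 also had more unnamed clusters lower than higher. Chromosome 9 had 71 of 1090 lower (6.51%) and 2.48% higher, chromosome 2 had 115 of 2021 lower (5.69%) and 3.96% higher, and chromosome 19 had 5.28% of 1060 lower and 2.17% higher. In all, the lower count exceeded the higher count on 16 of 24 chromosomes for unnamed clusters and on 3 of 24 for named ones. The chromosome medians of unnamed and named clusters correlated with r = 0.759 over the 24 chromosomes and 0.542 without chromosome 21, a description over points that share both arrays.

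**Figure D4:**
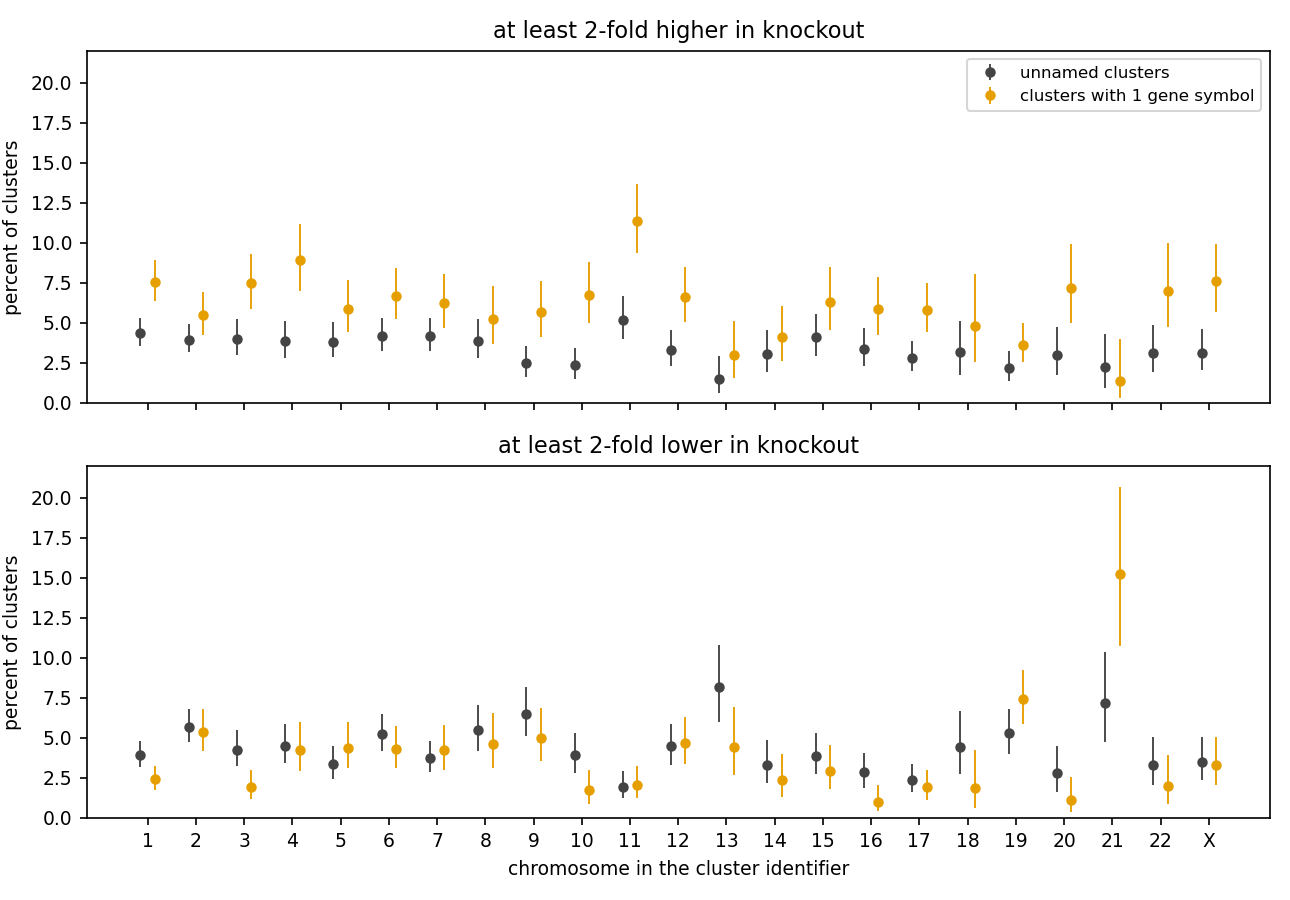
Percent of clusters at least 2-fold higher (top) and at least 2-fold lower (bottom) in the knockout array on chromosomes 1 to 22 and X, for unnamed clusters and for clusters with 1 gene symbol above the threshold; bars are exact binomial 95% intervals, which cover counting error only. Chromosomes 13 and 21 have the highest unnamed shares on the lower side (8.16% and 7.20%), and chromosome 11 has the highest on the higher side (5.2%).

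The mitochondrial chromosome stood apart. All 12 of its unnamed clusters passed the threshold, and all 12 were above 0, with a median of 0.61, or 11 of 12 after quantile normalization of the arrays or subtraction of the level trend. TC0M00006448.hg.1 had 15.69 in the knockout and 14.09 in the parental array, TC0M00006444.hg.1 had 16.31 and 15.13, and TC0M00006449.hg.1 had 12.31 and 11.19. These 3 were at least 2-fold higher, and the other 9 differed by 0.01 to 0.89. The 10 named rows of that chromosome, which hold genes of the respiratory chain and ATP synthase, were also above 0 but by 0.01 to 0.25. By identifier number, 9 of the 12 come after CYTB, the cytochrome b gene, and before ND6, a complex I subunit gene encoded on the other strand. The numbers pass to the other strand within this run, so they do not place these 9 clusters between those genes.

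Unnamed members were fainter than named clusters, with a median higher value of 6.18 against 8.37. At a higher value of 6 or less lay 11571 (45.7%), and above 8 lay 5800 (22.9%), against 9512 (53.3%) of the named clusters. The spread of the differences varied with level, from an SD of 0.50 between the threshold and 5 to 0.65 at 8 to 12 and 0.29 above 16. The share 2-fold lower went from 3.17% between the threshold and 5 to 5.76% at 8 to 10 and was 1.88% above 16, and the share 2-fold higher went from 2.76% to 4.63% and 0.70%. Named clusters at 8 to 10 had 8.78% higher and 5.09% lower, so the contrast on the higher side was also present at matched level.

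**Figure D5:**
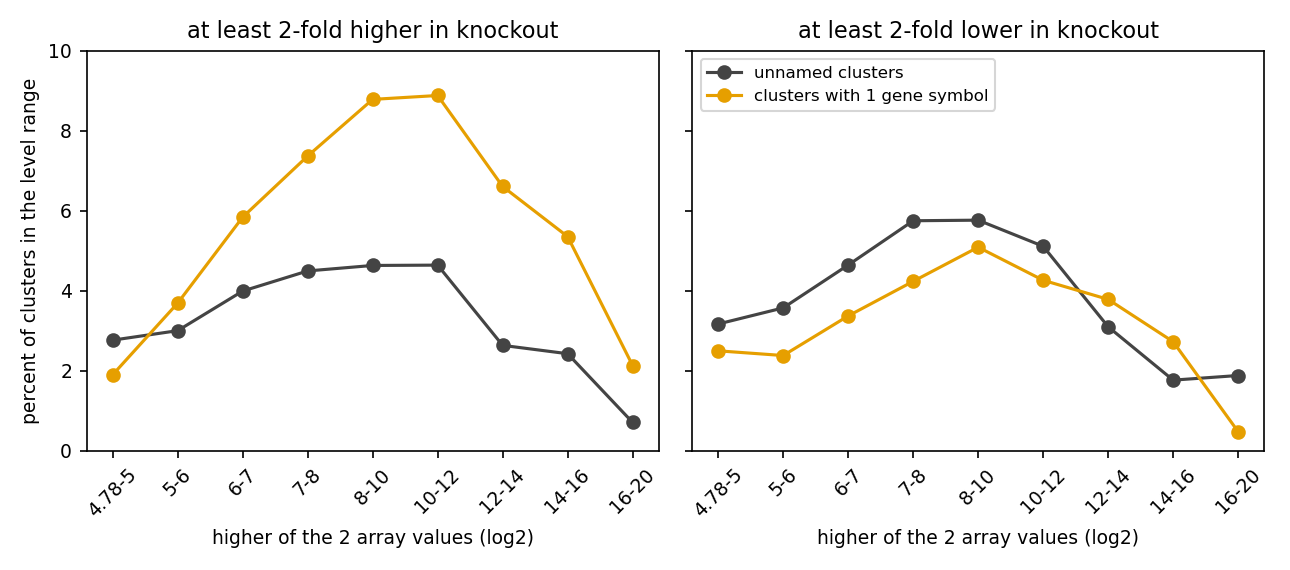
Percent of clusters at least 2-fold higher (left) and at least 2-fold lower (right) in the knockout array, by the higher of both array values on the log2 scale, for unnamed clusters and clusters with 1 gene symbol. From 5 upward the named clusters lie above the unnamed ones on the higher side (8.78% against 4.63% at 8 to 10), whereas on the lower side the unnamed ones lie above up to 12 (5.76% against 5.09% at 8 to 10).

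By size, 10986 members (43.4%) differed by less than 0.25, 6802 (26.9%) by 0.25 to 0.5, 5545 (21.9%) by 0.5 to 1 and 1825 (7.21%) by 1 to 2. Beyond that, 123 differed by 2 to 3, 21 by 3 to 4 and 9 by 4 or more. The lower of both values was at or below the threshold in 748 of the 1825, in 61 of the 123, in 10 of the 21 and in 3 of the 9.

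The brightest unnamed clusters hardly differed. TC1300009757.hg.1 had 19.50 in the knockout and 19.50 in the parental array, TC1200010436.hg.1 had 19.46 and 19.50, and TC1200010664.hg.1 had 18.96 and 19.06. Many rows share their values: 391 members fell into 164 groups with identical values in both arrays, so that the 25311 members hold 25084 distinct pairs of values. Identical pairs made up 12.2% of the members above 16 and 1.36% of the others. A group of 8 clusters, spread over 7 chromosomes, had 18.56 and 18.55, and another of 8, with 4 on chromosome 21, 2 on a contig of chromosome 22 and 2 on an unplaced contig, had 6.06 and 6.03.

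For the series as a whole, the highest values were 19.80 in the knockout and 19.82 in the parental array, beyond the range of a 16-bit scanner on this scale. Folds therefore hold on the deposited scale only. Above 16 lay 426 unnamed members. Of 12 hepatocyte markers measured, all 12 were above the threshold, with medians of 17.52 and 17.44 and ALB, the albumin gene, at 18.84 and 18.87. None of 5 endothelial markers was, 2 of 5 leukocyte markers were, LYZ, the lysozyme gene, among them at 11.87 and 9.62, with PTPRC, the pan-leukocyte gene, at 4.72 and 4.76, and 4 of 6 fibroblast and stellate markers were, LUM, a collagen-binding proteoglycan gene, among them at 12.69 and 7.90. The other 3 of these, COL1A1, COL1A2 and PDGFRB, differed by -0.45, -0.16 and -0.13.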

How the data were processed

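Total RNA of Hep3B cells was measured on 2 arrays, with RNA of the SOX4 knockout line on the first and of parental cells on the second. The deposited log2 values come from the authors' use of Transcriptome Analysis Console with RMA, as the submitters' processing notes list them without versions. RMA subtracts background, brings arrays to a shared distribution and combines the probes of a cluster, so a shift common to most clusters would not show. The array design in the labels does not match the identifiers. Scanner files and detection calls were not used here.

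Rows were joined to the platform annotation, and named clusters to RefSeq (GRCh38.p14) through Entrez identifiers (25516 matched). Members were unnamed rows whose higher value exceeded about 4.8, the median over named genes in earlier work on these data. The members, lists and rules were chosen with earlier results of these data known. Named in the text are the 15 highest and 15 lowest differences with their neighbours, sets of at least 4 members in a row past 2-fold, windows of 25 members, and SOX4's surroundings; examples among these were chosen after their values were seen. No test was run, since each genotype has a single array, and the number of arrays limits the precision. Counting was tested on simulated data. Python 3.11.15, numpy 2.4.6, pandas 2.3.3 and scipy 1.17.1 were used.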

Additional observations from a re-analysis of the deposited data

How the results depend on the processing

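With 1 array per genotype, no setting below measures the spread between cultures. Of 87 values recomputed under 16 settings, 3 of them chosen after seeing the data, 74 stayed within the range set for each and 13 moved. Where both arrays had to exceed the threshold, 527 members were 2-fold higher and 629 lower, 43 and 36 were 4-fold higher and lower, and 12 stretches were found in place of 24. With a threshold of 6 the 2-fold counts were 561 and 676 of 13740 members, against 901 and 1077 of 25311 as reported. The counts thus fell while both shares rose. With no level filter the share of chromosome 21 that was 2-fold lower was 2.17% in place of 7.20%. Over all unnamed clusters that share was 1.53% in place of 4.26%. The correlation with the nearest named cluster was then 0.0929 in place of 0.204, and 11 stretches were found. A mean over both arrays above the threshold gave 14 stretches, windows of 15 members gave 84 and windows of 50 gave 4, so the number of stretches depends on the window. Centring both arrays on their medians turned the unnamed median from -0.02 to 0.01, with 979 members higher and 986 lower, and 82 and 73 at 4-fold. The higher share of 2-fold differences thus ranged from 44.0% with no filter to 49.8%, against 45.6% as reported. No paired analysis was possible because each genotype has a single array.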

Other observations

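The 230 members for which the identifier gave no chromosome by its first 2 characters, which are unmapped or lie on contigs, had a median difference of -0.10, with 87 above 0 and 143 below. Of these 230, 5 were 2-fold higher and 6 lower. Their median higher value was 7.36, against 6.18 for the unnamed members as a whole. The 151 unmapped members among them had a median difference of -0.16 and a median higher value of 6.34.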
